A study of Homo sapiens with 6 samples.

Results

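The minor spliceosome, the machine that removes the rare U12-type introns, is described here through 10 genes measured by RNA-seq: its 4 specific small nuclear RNAs (snRNAs), RNU11, RNU12, RNU4ATAC and RNU6ATAC, and 6 proteins of the U11/U12 particle, SNRNP25, SNRNP35, SNRNP48, ZCRB1, RNPC3 and PDCD7. The members were taken by gene name, without the pseudogene copies, and their transcripts were summed per gene. They cover 38 transcripts, 6 of the snRNAs and 32 of the protein genes, of 207167 transcripts and 63188 genes in the whole table. The libraries came from rRNA-depleted total RNA of HEK293T-Rex, a human embryonic kidney cell line with a tetracycline-controlled repressor. One group, called D391N, overexpressed the catalytically inactive D391N mutant of DIS3L2 with a C-terminal Flag tag from a stable doxycycline-inducible insertion (3 libraries), beside the endogenous gene. The other group was control cells of the same line without this construct (3 libraries). The study's RNA-seq methods report that the mutant was induced with doxycycline. They do not say whether the controls received doxycycline, so drug and construct cannot be told apart. DIS3L2 is a cytoplasmic 3′ to 5′ exoribonuclease that degrades uridylated RNAs, and the comparison asks whether the inactive enzyme goes with other RNA levels. The labels do not say whether the replicates were separate cultures, so p-values measure only the spread between these libraries, which may be technical. By the study's methods, 3 indices were used and 3 libraries shared a lane. Which libraries these were is not given, so lane and condition cannot be told apart.

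In the minor spliceosome, U11 and U12 enter an intron together as a di-snRNP, U11 pairing with the 5′ splice site and U12 with the branch site. U4atac and U6atac form a paired complex that joins with U5. U4atac then leaves, and U6atac takes the place of U11 at the 5′ splice site. The 6 proteins belong to the U11/U12 di-snRNP, whereas U5 and most tri-snRNP and SF3b proteins are shared with the major spliceosome. Sequence changes in RNU4ATAC and RNPC3 are known causes of inherited growth disorders in humans.

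The 4 snRNAs are printed here because the results turn on how far these partner RNAs kept the same proportions in the libraries. The sequences are 5′ to 3′ as DNA letters, from the annotated GRCh37 transcripts at chr1:28975112-28975242 (plus strand, U11), chr22:43011250-43011399 (plus strand, U12), chr2:122288457-122288583 (plus strand, U4atac) and chr9:137029561-137029686 (minus strand, U6atac). For U12 the annotated transcript is longer, and its first 150 bases, the RefSeq length of RNU12, are printed. Capitals mark the stretches that can pair with the intron or with the partner snRNA, and the motif AATTTTT of the Sm-ring type.
U11: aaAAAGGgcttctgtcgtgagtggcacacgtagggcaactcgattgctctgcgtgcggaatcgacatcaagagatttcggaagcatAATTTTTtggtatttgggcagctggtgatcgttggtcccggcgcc
U12: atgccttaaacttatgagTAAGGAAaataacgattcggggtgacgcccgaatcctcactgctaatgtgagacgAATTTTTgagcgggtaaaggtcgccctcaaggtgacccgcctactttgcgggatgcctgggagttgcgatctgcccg
U4atac: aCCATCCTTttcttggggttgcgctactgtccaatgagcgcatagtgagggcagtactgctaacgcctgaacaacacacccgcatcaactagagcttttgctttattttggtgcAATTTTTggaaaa
U6atac: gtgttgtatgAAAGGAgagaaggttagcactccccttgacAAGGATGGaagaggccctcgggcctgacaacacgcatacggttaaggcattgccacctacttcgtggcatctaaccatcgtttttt

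Counted from 1 at the 5′ end, U11 bases 3 to 7 and U6atac bases 11 to 16 are complementary to letters of the U12-type 5′ splice site ATATCCTTT, and U12 bases 19 to 25 to letters of the branch site TTCCTTAAC. U4atac bases 2 to 9 are the exact complement of U6atac bases 41 to 48. U11, U12 and U4atac hold AATTTTT on the RNA strand, and U6atac does not. Of 1550 annotated snRNA transcripts of 100 to 200 nt, 112 (7.23%) hold this motif and 86 hold its reverse complement. The RNU4ATAC gene lies in an intron of CLASP1 on the opposite strand and of CLASP1-AS1 on its own strand.

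Levels are given as RPKM, reads scaled to transcript length and to library size, obtained from the deposited natural log values. Differences are log2 fold changes, D391N minus control, on the log2(RPKM + 0.1) scale with their standard error (SE). Calls used limma across all 20712 genes or 54671 transcripts that averaged 1 RPKM or more, at a Benjamini-Hochberg adjusted p under 0.05. DIS3L2 was at 369, 467 and 512 RPKM in the D391N libraries and 11.8, 12.9 and 14.6 RPKM in the controls (log2 fold change 5.08, limma adjusted p = 2.7e-04), matching the labels. Of the markers of this cell line, LIN28B was at 15.8 to 31.9 RPKM and PAX2 at 1.31 to 1.93 RPKM, the latter from 27.5 to 69.8 estimated reads, while NEFM lay between 0.241 and 0.638 RPKM. PTPRC, ALB and DES, markers of other cell types, did not exceed 1.77 RPKM or 5.08 estimated reads in any library, and PTPRC, at a level like that of PAX2, had under 1 estimated read in each. Relative depth, read off the values that transcripts with no reads take, differed 1.62-fold between the deepest and the shallowest library. D391N replicate 2 stood apart in its short RNAs: 0.342% of its reads were in RNAs under 200 nt, against 1.52% and 2.43% in the other D391N libraries and 2.89% to 3.18% in the controls. These shares were estimated as RPKM times length over the 90.2% of transcripts with a known length. The entries ENST00000362512 of U12 and ENST00000387069 of U11 had no known length and are not in them.

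None of the 10 genes and none of their 28 tested transcripts passed the threshold in limma at an adjusted p under 0.05, while 3 of 10 genes and 6 of 28 transcripts had an unadjusted p under 0.05. Over all features the same limma fits called 0.140% of genes, 1 higher and 28 lower, and 0.0604% of transcripts. An unadjusted p under 0.05 was found for 22.8% of all tested genes and 17.6% of all tested transcripts, so the counts among the members are near this background. In the D391N libraries 2 of the 4 snRNAs, U11 and U6atac, lay wholly below the controls, U12 and U4atac overlapped them, and of the 6 protein genes only ZCRB1 lay wholly above. Over all tested genes, 20.7% had every D391N library below every control and 10.5% had every one above. With 3 libraries in each group, the exact permutation test cannot give a p under 0.1.

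**Figure D1:**
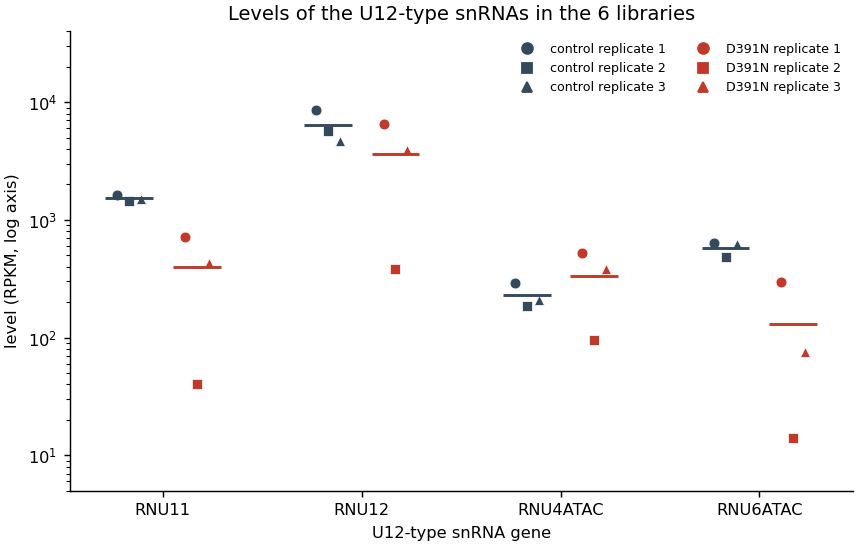
Level of each U12-type snRNA gene in RPKM (log axis) in the 3 control and 3 D391N libraries, with marker shapes for replicates and a line at each group mean. U11 and U6atac lie below the controls in all 3 D391N libraries, D391N replicate 2 (squares) is the lowest for each snRNA, and U4atac is at 519 and 381 RPKM in D391N replicates 1 and 3, above the control maximum of 292 RPKM.

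RNU11, the snRNA that first reads the 5′ splice site through its capitals near the 5′ end, was at 715, 40.4 and 434 RPKM in D391N replicates 1 to 3 and at 1635, 1439 and 1495 RPKM in the controls. All 3 D391N libraries were below the controls, and they spread far more than the controls did (396 ± 339 against 1523 ± 101 RPKM, SD, n = 3 each). The log2 fold change was -2.71 (SE 1.0, limma adjusted p = 0.183; exact permutation p = 0.1, two-sided). Without D391N replicate 2 it was -1.45 (limma adjusted p = 0.109).

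RNU12, which pairs with the branch site, had the highest RPKM of the 4, at 6517, 381 and 3926 RPKM in D391N and 8644, 5666 and 4720 RPKM in the controls. The groups overlapped, since D391N replicate 1 was above 2 of the control libraries. The means were 3608 ± 3081 and 6343 ± 2048 RPKM (SD, n = 3 each), with a log2 fold change of -1.52 (SE 1.04, limma adjusted p = 0.42). Without D391N replicate 2 the log2 fold change was -0.28.

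RNU6ATAC, the catalytic U6-like snRNA, was at 298, 14.1 and 75.8 RPKM in D391N and 641, 479 and 619 RPKM in the controls. Each D391N library was below each control, and the value of D391N replicate 2 rests on about 9.35 reads, as estimated from its posterior variance. The log2 fold change of -3.07 (SE 0.99, limma adjusted p = 0.153) was the lowest of the 10 members. Without D391N replicate 2 it was -1.93. When D391N replicate 1 was left out it was -4.13 and passed the threshold (limma adjusted p = 0.0262).

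RNU4ATAC, the snRNA that holds U6atac before activation, was at 519, 95.8 and 381 RPKM in D391N and 292, 186 and 210 RPKM in the controls. Its D391N libraries lay on both sides of the controls, 2 above and 1 below. The means were 332 ± 216 and 229 ± 55.6 RPKM (SD, n = 3 each) and the log2 fold change was 0.25 (SE 0.61, limma adjusted p = 0.841). Without D391N replicate 2 it was 0.98, and without D391N replicate 1 it was -0.23, so its sign rests on single libraries. Among the 1711 tested genes with no transcript of 200 nt or more, 1265 had a negative log2 fold change (median -0.86), and 326 had a log2 fold change above that of RNU4ATAC.

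In the controls the order of the mean levels per length was U12, U11, U6atac and U4atac, with no overlap between neighbours. In the D391N libraries the order of the means was U12, U11, U4atac and U6atac, and each neighbouring pair overlapped. U4atac was thus below its pairing partner in the controls and above it under D391N, within each single library.

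The ratio of U4atac to U6atac compares 2 RNAs of near-equal length in the same library, so a scale factor common to both cancels. It was 1.74, 6.77 and 5.03 in D391N and 0.455, 0.388 and 0.338 in the controls. The lowest D391N ratio was 3.82 times the highest control ratio, and the difference of the log2 means was 3.32 (SDs 1.03 and 0.21, n = 3 each). These ratios were chosen after the levels had been seen and carry no test. Library effects that differ between the RNAs of a ratio do not cancel. The share of reads in RNAs under 200 nt was 2.43%, 0.342% and 1.52% in D391N replicates 1 to 3 and 2.89% to 3.18% in the controls. Its part in these ratios was not tested. U4atac was also above the controls in proportion to U11, at 0.727, 2.37 and 0.878 in D391N against 0.179, 0.129 and 0.14. The ratio to U12 was 0.0797, 0.252 and 0.0971 in D391N against 0.0338, 0.0328 and 0.0444. Against the sum of RNU4-1 and RNU4-2, its counterparts in the major spliceosome, it was 0.479, 2.87 and 0.685 against 0.143, 0.111 and 0.155. In each of these ratios the groups did not overlap.

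U11 and U12, which act as 1 di-snRNP, differed in their proportion too. U11 over U12 was 0.11, 0.106 and 0.111 in D391N and 0.189, 0.254 and 0.317 in the controls. The 3 D391N ratios were close together although the U12 level of these libraries ran from 381 to 6517 RPKM. The U11 level of D391N replicate 2 rests on about 3.55 estimated reads and that of replicate 3 on 35.6, which are low estimates because the near-identical U11 entries share reads, so the closeness of the ratios is not firm. U6atac over U12 was 0.0458, 0.0372 and 0.0193 in D391N, below the control values of 0.0742, 0.0846 and 0.131. U6atac over U11 overlapped between the groups, at 0.418, 0.35 and 0.175 against 0.392, 0.333 and 0.414.

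**Figure D2:**
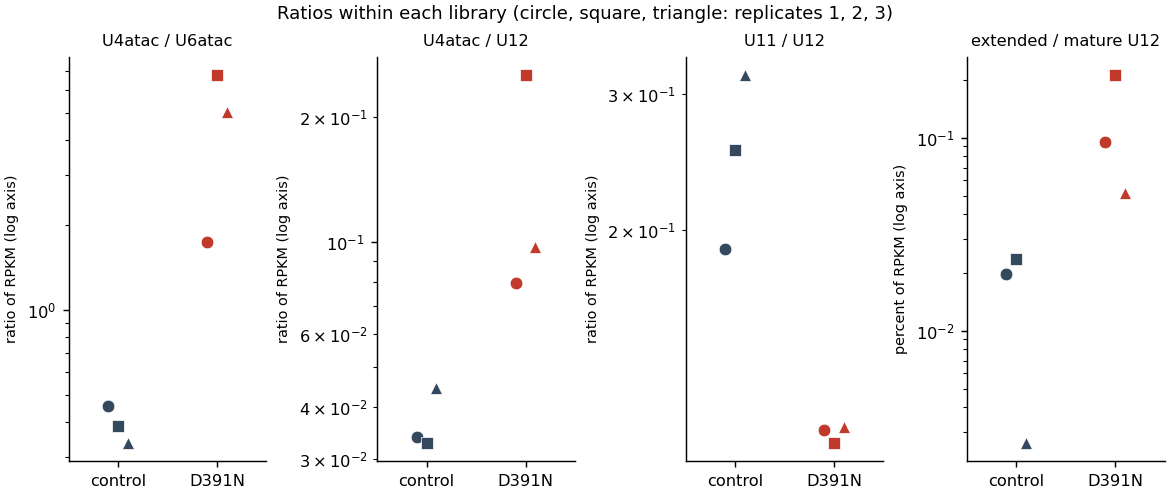
Ratios of RPKM within each library (log axes) for U4atac over U6atac, U4atac over U12 and U11 over U12, and the 3′-extended U12 transcript as a percent of mature U12; control and D391N libraries are side by side and marker shapes give the replicate. The groups do not overlap in any panel, with U4atac over U6atac at 1.74 to 6.77 in D391N and 0.338 to 0.455 in the controls, and U11 over U12 at 0.106 to 0.111 against 0.189 to 0.317.

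Several features of the table bear on these snRNA values. U11 has a pair of near-identical entries that share reads: ENST00000602813 was at 677, 17 and 207 RPKM in D391N and 1597, 1428 and 1463 RPKM in the controls, and ENST00000387069 at 37.5, 23.4 and 227 RPKM against 38.3, 10.1 and 31.8 RPKM. The split between them is uncertain and only their sum is used. Pseudogene copies could take reads from U6atac most of all, with 41 copies of which 10 had 3 or more estimated reads in a library, and together 27.5 to 134 RPKM. In D391N replicate 2 these copies summed to 39.5 RPKM, more than RNU6ATAC itself. U4atac had 17 copies (9.93 to 16.3 RPKM in sum), U11 had 4 and U12 had 1, and those of U11 and U12 stayed at or under 1.58 RPKM in sum.

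A longer transcript of the RNU12 locus, ENST00000602478, starts as mature U12 and runs 514 nt further to base 664 (GRCh37 chr22:43011250-43011913, plus strand). The first 60 bases after the mature end, at chr22:43011400-43011459, are printed to show where reads of the longer transcript begin to differ.
U12 downstream: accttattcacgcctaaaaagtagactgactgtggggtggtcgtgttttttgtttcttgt

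This transcript was at 6.19, 0.799 and 2.02 RPKM in D391N and 1.7, 1.34 and 0.124 RPKM in the controls, from about 72.8, 7.89 and 27.0 against 29.7, 24.2 and 0.949 estimated reads. The levels overlapped between the groups (log2 fold change 1.46, limma adjusted p = 0.474), and the difference was 0.51 without control replicate 3, 0.73 without D391N replicate 1 and 2.13 without D391N replicate 2. As a percent of the mature transcript ENST00000362512 it was 0.0951, 0.21 and 0.0516 in D391N and 0.0196, 0.0236 and 0.00263 in the controls. The 3 D391N shares were all above the control shares, and the lowest control share rests on under 1 read. The longer transcript also runs into exons of CYB5R3 (from base 487) and of ENSG00000289517 (from base 407) on the opposite strand, and the strand setting of the counting is not given in the sources used here, so reads of these genes cannot be told apart there. CYB5R3 itself was at 53.9 to 60.2 RPKM in D391N and 67.0 to 83.3 RPKM in the controls.

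**Figure D3:**
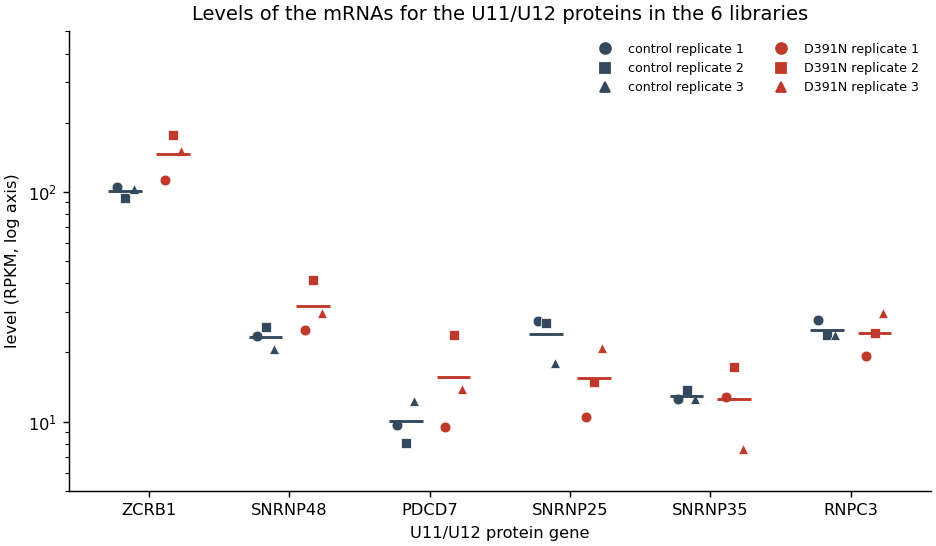
Level of the mRNA of each U11/U12 protein gene in RPKM (log axis) in the 3 control and 3 D391N libraries, with a line at each group mean. ZCRB1 is the highest of the 6 and the only gene with every D391N library (113 to 177 RPKM) above every control (94.2 to 105 RPKM).

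ZCRB1, the zinc-knuckle and RNA-recognition-motif protein U11/U12-31K, was at 113, 177 and 150 RPKM in D391N and 105, 94.2 and 103 RPKM in the controls. All D391N libraries were above the controls, with means of 147 ± 32.3 and 101 ± 5.61 RPKM (SD, n = 3 each). The log2 fold change was 0.52 (SE 0.2, limma adjusted p = 0.193), and 0.70 without D391N replicate 1, when it passed the threshold (limma adjusted p = 0.0413). The gene overlaps exons of PPHLN1 on the opposite strand.

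SNRNP48, U11/U12-48K, a protein that contacts the 5′ splice site, was at 25.0, 41.2 and 29.8 RPKM in D391N and 23.6, 25.8 and 20.7 RPKM in the controls. D391N replicate 1 lay within the control range, and the log2 fold change was 0.43 (SE 0.21, limma adjusted p = 0.278). PDCD7, U11/U12-59K, a partner of RNPC3, was at 9.46, 23.7 and 13.8 RPKM against 9.66, 8.07 and 12.3 RPKM. Its groups overlapped as well, with a log2 fold change of 0.56 (SE 0.35, limma adjusted p = 0.372).

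SNRNP25, U11/U12-25K, was the protein gene with the lowest log2 fold change, -0.67 (SE 0.29, limma adjusted p = 0.231). It was at 10.5, 14.8 and 20.9 RPKM in D391N and 27.5, 26.8 and 18.0 RPKM in the controls, with D391N replicate 3 above the lowest control. SNRNP35, U11/U12-35K, a relative of the U1-70K protein, was at 12.8, 17.3 and 7.56 RPKM against 12.5, 13.7 and 12.5 RPKM. Its D391N values lay on both sides of the tight controls (log2 fold change -0.12, SE 0.3, limma adjusted p = 0.843), and the gene overlaps exons of RILPL1 on the opposite strand.

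RNPC3, U11/U12-65K, which binds the 3′ stem-loop of U12, was at 19.2, 24.2 and 29.7 RPKM in D391N and 27.7, 23.9 and 23.8 RPKM in the controls. The groups overlapped, with a log2 fold change of -0.06 (SE 0.19, limma adjusted p = 0.869). It shares exonic sequence with AMY2B on its own strand. Per length, ZCRB1 was the highest of the 6 in every library, and PDCD7 had the lowest mean in the controls.

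**Figure D4:**
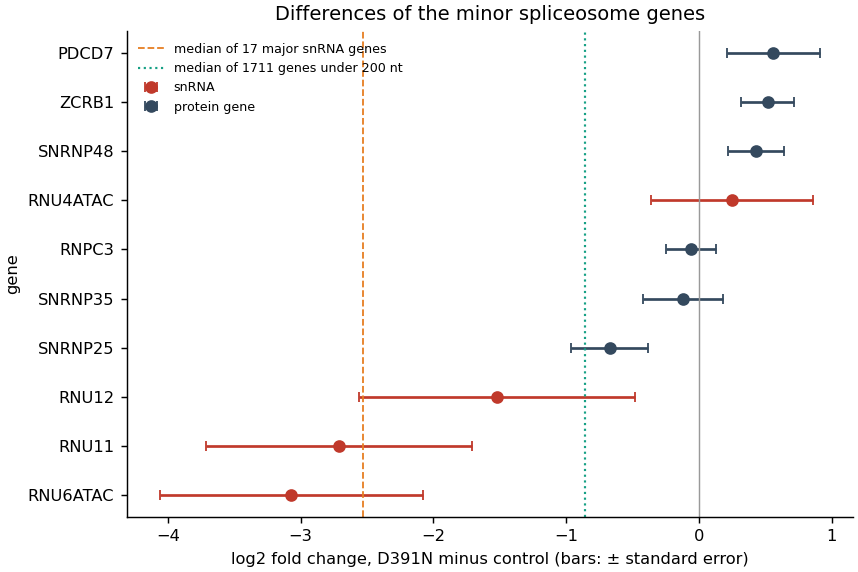
Log2 fold change (D391N minus control, bars ± standard error) of the 10 minor spliceosome genes, with dashed and dotted lines at the medians of 17 major snRNA genes (-2.53) and of 1711 tested genes under 200 nt (-0.86). RNU6ATAC, RNU11 and RNU12 are at -3.07, -2.71 and -1.52, whereas RNU4ATAC is at 0.25, among the protein genes, which span -0.67 to 0.56.

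Set side by side, the 4 snRNAs had a median log2 fold change of -2.12 and the 6 protein genes of 0.18, a difference of -2.3, beside a median of -0.09 over all tested genes. The median of the snRNAs stayed negative and that of the protein genes positive under median centring (-1.90 and 0.40), quantile normalization (-1.54 and 0.25) and centring on RNAs under 200 nt (-1.33 and 0.97), an alternative chosen after seeing the data. Without D391N replicate 2 they were -0.86 and 0.07. In single libraries the median deviation of the snRNAs minus that of the proteins was 0.94, -4.04 and -0.35 in D391N and 1.45, 1.01 and 0.91 in the controls. D391N replicate 1 lay within the control range and D391N replicate 2 far below it, and the pooled SD was 1.84. Leaving out each library in turn moved the difference between -3.27 and -0.93, the latter without D391N replicate 2. The summed RPKM of the snRNAs over that of the protein genes overlapped between the groups, at 42.4, 1.78 and 19.1 against 54.6, 40.4 and 37. The share of reads in RNAs under 200 nt, given above for each group, was lower in all 3 D391N libraries and lowest in replicate 2. Its part in the snRNA values was not tested.

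The snRNAs of the major spliceosome were on the same side. Of 17 tested genes all had a negative log2 fold change (median -2.53, and -1.69 without D391N replicate 2). Wholly below the controls lay 9 of them, beside 20.7% of all tested genes. In limma 2 were called lower, beside 0.140% of all genes called: RNU6-7 (-3.52, limma adjusted p = 0.0467) and RNU6-8 (-3.50, limma adjusted p = 0.0282). Both are near-identical U6 copies with under 1 estimated read of their own in each library, so their separate values are uncertain. RNU1-1 to RNU1-4, also wholly below the controls, had at most 4.76 estimated reads of their own in a library. The 17 genes are therefore not 17 separate signals. RNU4ATAC, at 0.25, was above the highest of these 17 log2 fold changes, -1.37.

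By transcript, the protein genes held differences between forms that their sums do not show. ZCRB1 has 2 main coding forms. ENST00000552235 was at 53.3, 139 and 95.7 RPKM in D391N and 36.3, 39.6 and 41.9 RPKM in the controls, with every D391N library above (log2 fold change 1.18, limma adjusted p = 0.205). ENST00000552673 was at 43.4, 25.9 and 37.5 RPKM against 51.1, 42.2 and 49.5 RPKM, with overlap (log2 fold change -0.44). The first form over the second was 1.23, 5.37 and 2.55 in D391N and 0.712, 0.94 and 0.848 in the controls, a ratio chosen after the values were seen. The third coding form, ENST00000266529, had a log2 fold change of -0.02.

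RNPC3 held the widest spread between forms. ENST00000527062, its leading form in the controls, was at 5.98, 0.286 and 8.03 RPKM in D391N and 12.8, 10.6 and 10.5 RPKM in the controls (log2 fold change -2.09, limma adjusted p = 0.363). All D391N libraries were below, and D391N replicate 2 had under 1 estimated read. Without that library the log2 fold change was -0.69. ENST00000524641 was at 0.529, 9.57 and 4.41 RPKM in D391N against 0.588, 0.665 and 0.239 RPKM, high in D391N replicates 2 and 3 only (log2 fold change 2.42, limma adjusted p = 0.277), and the controls had under 1 estimated read each. Without D391N replicate 2 it was 1.58, and without D391N replicate 1 it was 3.55 and passed the threshold. The coding form ENST00000533099, with 136 to 323 estimated reads, had a log2 fold change of -0.01. Isoforms of a gene share reads, so the split between them is less certain than the sum of the gene.

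**Figure D5:**
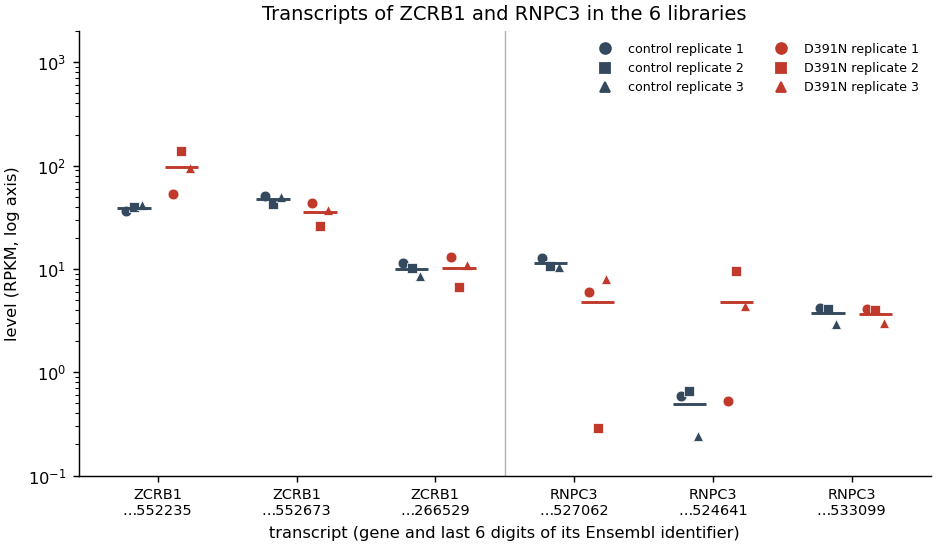
Level in RPKM (log axis) of 3 ZCRB1 and 3 RNPC3 transcripts in the 3 control and 3 D391N libraries, with a line at each group mean. ZCRB1 ENST00000552235 is at 53.3 to 139 RPKM in D391N and 36.3 to 41.9 RPKM in the controls, and RNPC3 ENST00000527062 is at 0.286 to 8.03 RPKM in D391N and 10.5 to 12.8 RPKM in the controls.

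SNRNP25 had 1 form wholly below the controls, ENST00000383018, at 1.96, 3.03 and 3.35 RPKM in D391N and 6.54, 7.19 and 4.62 RPKM in the controls (log2 fold change -1.12, limma adjusted p = 0.182). ENST00000417493 of the same gene had a log2 fold change of -1.54 (limma adjusted p = 0.261) with overlap. For PDCD7, ENST00000204549 had the most estimated reads but held 24.8% to 79.7% of the gene's RPKM, depending on the library. It was at 5.57, 5.87 and 4.81 RPKM against 5.28, 6.44 and 5.9 RPKM. The gene's higher D391N mean came from ENST00000560313, at 3.84, 17.5 and 8.7 RPKM against 4.14, 1.33 and 6.14 RPKM (log2 fold change 1.34, limma adjusted p = 0.369). It was 0.81 without D391N replicate 2 and 0.72 without control replicate 2. SNRNP48 was mostly its coding form ENST00000342415, with every D391N library (19.4, 27.8 and 19.5 RPKM) above the controls (18.1, 18.1 and 15.5 RPKM), and a log2 fold change of 0.35 (limma adjusted p = 0.485). The retained-intron form ENST00000496946 of SNRNP48 overlapped, with a log2 fold change of 0.59.

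The remaining 10 tested transcripts overlapped between the groups and had limma adjusted p from 0.333 upwards. For RNPC3 their log2 fold changes were -0.79 (ENST00000423855), 0.98 (ENST00000524631), 0.59 (ENST00000525323), 0.30 (ENST00000531883) and 0.30 (ENST00000533834). For SNRNP35 they were -0.25 (ENST00000526639), -0.37 (ENST00000529201) and -0.07 (ENST00000412157), so that none of its forms stood apart. ENST00000493672 of SNRNP25 was at -0.42 and ENST00000548022 of ZCRB1 at 0.54. Another 10 transcripts of the protein genes averaged under 1 RPKM and were not tested.

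The other proteins specific to the minor spliceosome gave a median log2 fold change of -0.04 over 10 genes. None was called (1 at an unadjusted p under 0.05 in limma, beside 22.8% of all genes). Of the 10, 2 lay wholly below and 1 wholly above the controls, beside 20.7% and 10.5% of all genes. ZMAT5, the U11/U12-20K protein, was at 6.22, 5.48 and 4.57 RPKM against 8.44, 8.71 and 7.96 RPKM, wholly below (log2 fold change -0.63, limma adjusted p = 0.123). ZRSR2, which reads the 3′ splice site of U12-type introns, had the highest value of this group, 0.33 (limma adjusted p = 0.455).

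Proteins shared with the major spliceosome were near the centre of all genes. Over 13 tri-snRNP proteins the median log2 fold change was 0.07, and none was called (2 at an unadjusted p under 0.05 in limma, beside 22.8% of all genes). Of the 13, 3 lay wholly above and 0 wholly below the controls, beside 10.5% and 20.7% of all genes. PRPF8, the core scaffold of the catalytic centre, was at 147, 165 and 109 RPKM against 84.5, 83.6 and 97.8 RPKM (log2 fold change 0.64, limma adjusted p = 0.14), and SNRNP40 of the U5 particle had the lowest value, -0.28. Over 7 SF3b proteins, which bind around the branch site, the median was 0.19, and none was called (1 at an unadjusted p under 0.05 in limma, beside 22.8% of all genes). Of the 7, 2 lay wholly below and 1 wholly above the controls, beside 20.7% and 10.5% of all genes. The values ran from -0.77 for SF3B4 to 0.52 for SF3B2.

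Genes known to carry a U12-type intron were described by 13 examples. Their median log2 fold change was -0.11 (0.10 under median centring and 0.68 under centring on RNAs under 200 nt) and none was called (4 at an unadjusted p under 0.05 in limma, beside 22.8% of all genes), and 5 of 13 lay wholly below the controls, beside 20.7% of all genes. Among them were the cell-cycle transcription factors E2F1 (-0.69) and E2F2 (-1.23) and the kinases MAPK3 (-0.96) and MAPK14 (-0.11). Of the same families, E2F3 (0.08), E2F6 (-0.1), MAPK8 (-0.11) and MAPK9 (0.02) overlapped the controls. MAPK3 had the lowest adjusted p of the 13, 0.0609, at 13.7, 12 and 13 RPKM in D391N and 24.5, 23.1 and 28.3 RPKM in the controls. E2F2 was at 5.47, 3.61 and 3.05 RPKM against 8.54, 9.26 and 10.2 RPKM (limma adjusted p = 0.0881). The highest value was that of NOP2, a nucleolar RNA methyltransferase, at 0.44. These values are levels of whole genes, and splicing of the U12-type introns themselves was not analysed here.

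Of 8619 genes with a mean of at least 10 RPKM, those whose log2 level over the 6 libraries was most like the mean of the 4 snRNAs were CDKN3 (Pearson r = 0.998), SLC35F1 (0.998), RNU4-2 (0.997), ENSG00000254341 (0.997) and RNU6-702P (0.996). All 6 points share library effects, and 695 genes had r over 0.9, so the likeness is a description only. CDKN3, a cell-cycle phosphatase, was at 45.7, 15.6 and 35.9 RPKM in D391N and 56.6, 45.7 and 48.6 RPKM in the controls, with D391N replicate 2 the lowest as for each snRNA.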

How the data were processed

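Adapters were removed by the authors with cutadapt, and Segemehl placed the reads on Ensembl transcripts, both protein-coding and non-coding (hg38 per the labels). BitSeq then gave each transcript a level in each library. What the authors deposited is a natural log RPKM (the mean of the posterior) and a posterior variance. BitSeq's own differential expression needs samples of the posterior and was not run here.

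RPKM was obtained by exponentiation and summed per gene. RNU11 and RNU12 were each joined from 2 Ensembl gene entries, paired through identifiers in a supplementary list of the study. Values were changed to log2(RPKM + 0.1), and features with a mean of at least 1 RPKM were fitted with limma 3.58.1 (empirical Bayes with trend, R 4.3.3), with Benjamini-Hochberg adjustment over all tested features. Other steps used Python 3.11.15, pandas 2.3.3, numpy 2.4.6, scipy 1.17.1 and matplotlib 3.10.9. Symbols were found for 88.2% of gene identifiers and lengths for 90.2% of transcripts. Positions and sequences came from the GENCODE annotation of GRCh37 by transcript identifier, with U12 cut at its RefSeq length. No read totals were used: reads behind a value were estimated from its posterior variance, and cover counting and assignment error only. Of all transcripts, 54.9% had under 3 such reads in every library.

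On simulated data with 200 features changed by 3 (log2), the gene fit called 81% of them (7 false calls), and the transcript fit 33% (5 false calls). The changed features were picked at random, and noise was drawn for each feature separately, without effects common to a library. These shares therefore do not give the power for the snRNAs, whose D391N libraries spread widely together.

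The members and lists were chosen with earlier results of these data known. The text names all members, their tested transcripts, DIS3L2, the called genes of each other list or otherwise its highest and lowest, and the 5 genes most like the mean snRNA profile. MAPK3, E2F1, MAPK14, E2F3, E2F6, MAPK8 and MAPK9, the within-library ratios and CYB5R3 were added after values were seen. RNU2-1, of the listed major snRNAs, was not analysed here, and 1 gene of the U12-intron list is not reported here by name.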

Additional observations from a re-analysis of the deposited data

How the results depend on the processing

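No member was called in the fits with a pseudocount of 1 or 0.01, other filters on low values, median centring, quantile normalization, no trend or array weights. Centring on RNAs under 200 nt was chosen after seeing the data and moves the median of all genes to 0.7, from -0.09. With it 2 member genes were called, RNU11 (-1.92) and RNU6ATAC (-2.28), and the values of SNRNP25 (0.12), SNRNP35 (0.67) and RNPC3 (0.73) changed sign. So did those of ZMAT5 (0.16), SNRNP40 (0.51), SF3B4 (0.02), E2F1 (0.10), MAPK14 (0.68), and the transcripts ENST00000493672 (0.32), ENST00000526639 (0.50), ENST00000529201 (0.37), ENST00000412157 (0.67), ENST00000266529 (0.72), ENST00000552673 (0.30), ENST00000533099 (0.73) and ENST00000204549 (0.63). Median centring, which moves the median of all genes to 0.13, turned SNRNP35 (0.10), RNPC3 (0.15), MAPK14 (0.10), ENST00000412157 (0.00), ENST00000266529 (0.05) and ENST00000533099 (0.06). Quantile normalization turned SNRNP35 (0.04) and ENST00000533099 (0.04). The cause was not tested.

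Leaving out each library in turn gave 0 to 2 member genes and 0 to 5 member transcripts called. The 2 genes, RNU6ATAC (-4.13) and ZCRB1 (0.70), and the 5 transcripts, ENST00000602813, ENST00000408749, ENST00000417493, ENST00000552235 and ENST00000524641, came without D391N replicate 1, when 2266 genes and 4984 transcripts were called in all, against 2 to 11 genes and 2 to 17 transcripts without any other library. Over these fits the log2 fold change ran from -3.52 to -1.45 for RNU11, -2.33 to -0.28 for RNU12, -0.23 to 0.98 for RNU4ATAC, -4.13 to -1.93 for RNU6ATAC, -0.39 to 0.21 for SNRNP35, -0.22 to 0.10 for RNPC3 and 0.37 to 0.70 for ZCRB1. For single transcripts with a change of sign it ran from -0.23 to 0.98 for ENST00000580972, -1.02 to 0.47 for ENST00000493672, -0.66 to 0.01 for ENST00000529201, -0.40 to 0.27 for ENST00000412157, -0.23 to 0.25 for ENST00000266529, -0.17 to 0.97 for ENST00000531883 and -0.18 to 0.13 for ENST00000533099.

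The count over all genes, 29, became 61 with a pseudocount of 1, 16 with 0.01, 6 with a mean of at least 5 RPKM, 18 with no filter, 14 with median centring, 17 with quantile normalization, 71 with array weights, 938 with centring on RNAs under 200 nt, and 2 to 2266 over the libraries left out. The count over all transcripts, 33, became 142, 17 and 18 with a pseudocount of 1, a mean of at least 5 RPKM and no filter, 52 without trend, 54 with array weights, 444 with centring on RNAs under 200 nt, and 2 to 4984 over the libraries left out. In the other lists 2 genes were called, RNU6-7 and RNU6-8. The count was 1, RNU6-8, with a pseudocount of 0.01, a mean of at least 0.1 or 5 RPKM, no filter, median centring, quantile normalization or no trend, 8 with centring on RNAs under 200 nt, and 0 to 11 over the libraries left out.

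Replicate numbers are shared by the groups, and the labels do not say whether libraries of the same number were handled together. Between libraries of the same number, deviations from the group means correlated at 0.0697, 0.221 and -0.112 at gene level. Between libraries of different numbers the correlations ran from -0.261 to 0.154. These values do not settle the question, and the main fit used no pairing. With the replicate block 0 member genes and 0 member transcripts were called, 2 genes and 7 transcripts over the whole table and 0 genes of the other lists. Few reads stand behind some values, such as RNU6ATAC in D391N replicate 2, at about 9.35 estimated reads. Relative depth was 0.617 in that library and 0.667 in control replicate 3, where RNU6ATAC had about 702 estimated reads. The part of depth in these values was not tested.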
